A study of Homo sapiens with 48 samples.

Results

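MP41 cells exposed to FHT-1015 for 4 h were compared with MP41 cells given DMSO, the solvent control, for the same time, across all genes. The samples were chosen by their titles and make up 6 of the 48 samples of the series, 3 replicates with FHT-1015 and 3 with DMSO. MP41 is an established human uveal melanoma cell line, and its genotype is labelled WT for all 6 samples. FHT-1015 is an inhibitor of both SMARCA4 and SMARCA2, and its dose is not in the labels. Polyadenylated RNA was sequenced, and the values are read counts per gene. The same drug was applied to MP41 for 24 h and to the uveal melanoma lines 92-1 and MEL202 for 4 h, each with DMSO samples of its own (6 samples per comparison). These serve here only to place the early response of MP41. The labels call the replicates biological but do not say whether they came from separate cultures or days, so p-values measure the spread between these samples, which may be partly technical.

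SMARCA4 and SMARCA2 are the alternative ATPases of BAF complexes, which move nucleosomes and keep enhancers open for transcription factors. Uveal melanoma arises from melanocytes of the eye, usually through activating mutations of Gq alpha subunits that feed protein kinase C and MAP kinase signalling. Its cells keep a melanocyte programme in which SOX10 and MITF switch on the genes of pigment synthesis. Early times after an inhibitor are commonly used to look at the first transcripts to move.

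The melanocyte identity of the line was visible in the DMSO samples, where PMEL lay between 4910 and 7960 CPM (a gene's share of all reads in genes, scaled by the TMM method), TYRP1 between 5440 and 6340, TYR between 978 and 1330 and MLANA between 508 and 607. Markers of other cell types were low: the summed level of the epithelial and retinal pigment epithelium list was at most 14.2 CPM in DMSO and 21.4 with FHT-1015, RPE65 had no reads, and of the leukocyte list only LYZ had enough reads to be tested. Reads in genes numbered 18054723, 18767519 and 17688886 in the DMSO replicates and 11394088, 17999529 and 26355425 in the FHT-1015 replicates. FHT-1015 replicate 1 was the shallowest library, with 20023 genes having a read against 22466 to 24055 in the others, and its log2 CPM correlated with those of the other libraries across genes at 0.975 to 0.982 against 0.984 to 0.989 among the rest. Mitochondrial reads made up 2.55 to 3.64% of reads in genes in DMSO and 2.42 to 3.74% with FHT-1015.

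After 4 h few genes passed the test in the reported fit, a count that was larger under several other settings. The lineage factor SOX10 fell furthest, to 20.8% of its DMSO level, and with it fell the cytokine receptor subunit IL6R, the adhesion scaffold NEDD9 and the MAP kinase feedback gene SPRY4. The genes that rose were led by NR4A2 and included NR4A3, MYC, ID2, SOX4, HEY1 and DACT1, which rose between 1.71-fold and 2.12-fold. Of 15543 genes tested, 11 were higher with FHT-1015 (0.0708% of those tested) and 24 were lower (0.154%), at a Benjamini-Hochberg adjusted p under 0.05 in edgeR's quasi-likelihood test. The median rise among them was 1.03 and the median fall was -1.20 on the log2 scale, and the smallest change called was 0.77 in size. Across all genes tested the 5th and 95th percentiles of the log2 fold change were -0.65 and 0.50, with a median of 0.01. At an unadjusted p under 0.05 there were 899 genes of the 15543, 305 higher and 594 lower, these 35 among them. This threshold passes a share of 0.05 of the genes when none has an effect, so the count alone does not mark a wider response. All 35 called genes had every FHT-1015 replicate beyond every DMSO replicate, a property that 9.61% of all tested genes had in the upward direction and 11.2% in the downward direction.

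The count of calls varied with the samples in the fit, the method and single libraries. The 4 groups of MP41 (both treatments at both times) shared one estimate of the spread. A fit of the 6 samples at 4 h alone, which tested 14439 genes, called 96 genes higher and 250 lower, all 35 among them, with a biological coefficient of variation of 0.11 against 0.217 over the 4 groups. Leaving out any one of the 12 libraries gave between 1 and 34 genes higher and between 6 and 107 lower. The lowest numbers came without DMSO replicate 2 at 4 h (1 higher, 6 lower) and the highest without DMSO replicate 2 at 24 h (34 higher, 107 lower). Without any single library of 4 h there were at most 7 higher and 13 lower, and without DMSO replicate 3 at 24 h 30 and 83. The cause was not tested. SOX10, RIPOR2, IL6R, CCDC9B and NEDD9 passed the threshold in all 12 of these fits, and each of the other 30 lost its call in at least 1. The direction of all 35 genes was the same in each of these fits and under the 11 other settings tried. As a share of the genes tested, calls in either direction made up 0.36% without the low-count filter, 1.09% with DESeq2, 4.18% with limma-voom, 1.36% with offsets for GC content and length, 1.41% with these offsets and a replicate block, 2.4% with the 6 samples at 4 h alone and 0.364% in one fit of 36 samples.

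**Figure D1:**
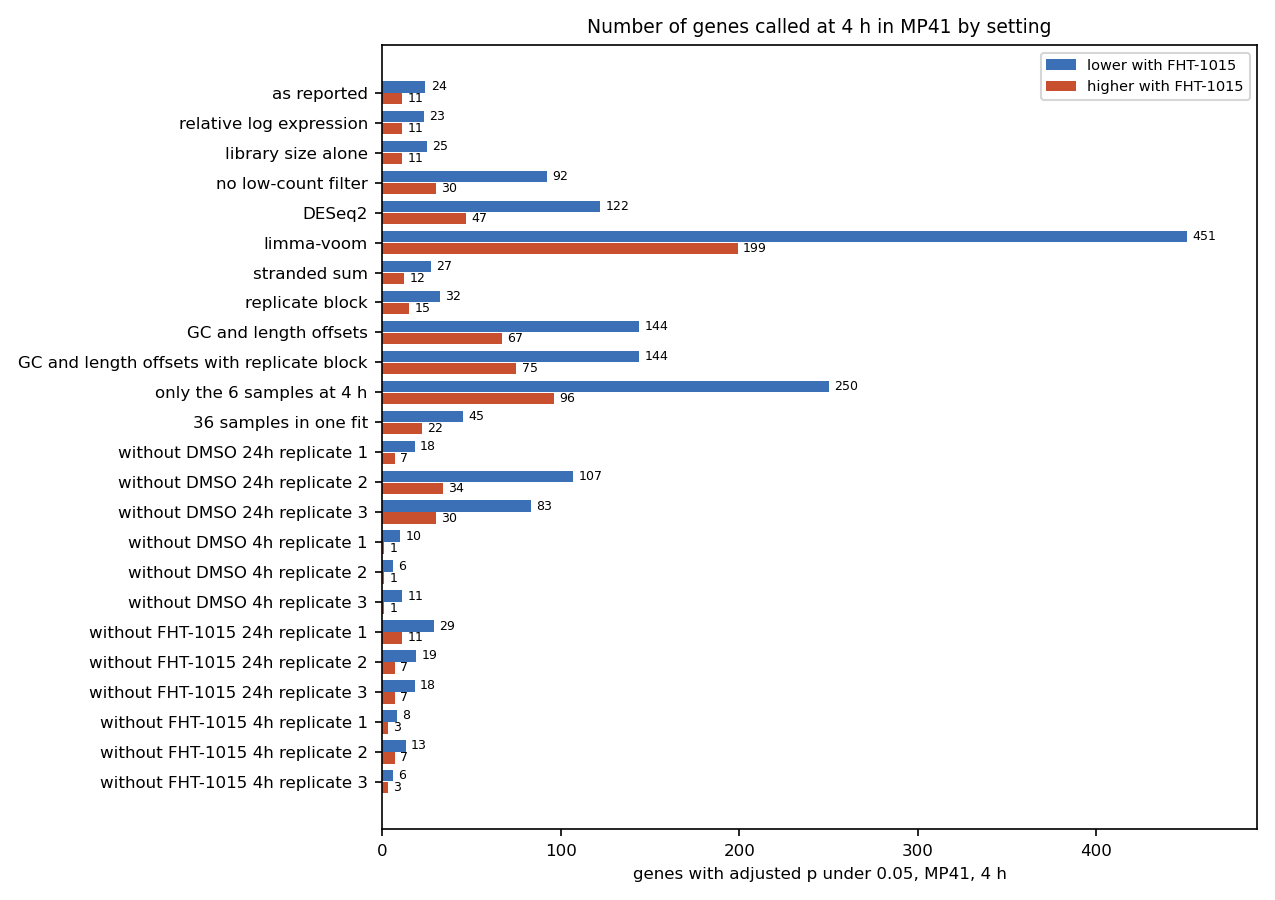
Number of genes called lower (blue bars) and higher (red bars) with FHT-1015 in MP41 at 4 h, under the setting reported and each alternative, on a linear axis that starts at 0. The reported setting gave 24 and 11, limma-voom with sample quality weights 451 and 199, and one fit of 36 samples 45 and 22.

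SMARCA4, a target of the drug, did not pass the test as a transcript. Its level was 443, 500 and 466 CPM in the DMSO replicates and 442, 539 and 447 CPM with FHT-1015, a log2 fold change of 0.02 (SE 0.23), whose sign turned when single libraries were left out. SMARCA2 stood at 57.5, 52.1 and 56.0 CPM in DMSO and at 44.1, 44.5 and 49.1 CPM with the drug (-0.27, SE 0.15, edgeR adjusted p 0.996). The 3 treated samples were lower than the 3 controls for SMARCA2 and overlapped them for SMARCA4. None of the 27 tested subunits of BAF complexes was called in either direction, in a fit that called 0.225% of all genes. Their median log2 fold change was 0.02. At most 2 were called under another setting (7.41%), with limma-voom (beside 4.18% of all genes) and with the offsets without the block (beside 1.36%). FHT-1015 acts on the enzymes, so the transcript levels of its targets describe the cells and are no check of the drug.

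SOX10 (ENSG00000100146.17, chromosome 22, 37970686 to 37987422, minus strand, GRCh38), a transcription factor that specifies neural crest and melanocyte fate, stood at 422, 498 and 457 CPM in the DMSO replicates and at 82.7, 112 and 92.5 CPM with FHT-1015. The groups were far apart, and the highest treated sample lay well under the lowest control. The fitted log2 fold change was -2.26 (SE 0.20, edgeR adjusted p 0.000449), leaving 20.8% of the DMSO level. Per kilobase of exon, SOX10 went from 124 to 25.8 RPKM. The gene lies across part of POLR2F in the annotation, and reads in the shared part cannot be assigned to one of them.

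MITF, the factor that activates pigment genes, lay at 322, 348 and 313 CPM in DMSO and at 171, 285 and 216 CPM with FHT-1015. Every treated sample was under every control, but the treated samples were spread widely, with the shallow replicate 1 lowest, and the change of -0.55 (SE 0.21) had an edgeR adjusted p of 0.622. ERBB3, a neuregulin receptor of the melanocyte lineage, stood at 110, 119 and 109 CPM in DMSO and at 50.6, 76.1 and 56.3 CPM with the drug (-0.89, edgeR adjusted p 0.0779), also without overlap and also not called. Of the 16 tested lineage regulators, SOX10 was the only one called (6.25%, beside 0.225% of all genes). The list had a median log2 fold change of -0.23 beside 0.01 over all genes. ERBB3 was called too without the low-count filter, with DESeq2, the replicate block, the offsets and the 6 samples alone. Limma-voom called 5 of the 16 (31.2%, beside 4.18% of all genes), SOX10, MITF, ERBB3 and KIT as lower and TFAP2A as higher. SNAI2, a repressor of epithelial genes, had the highest value of the list in the reported fit at 0.62 (SE 0.39), with overlapping samples. TFAP2B and FOXD3 had no reads in these 6 libraries.

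The pigment genes were not called at this time, in a fit that called 0.225% of all genes. None of 16 tested members of the pigmentation list passed the test, and their log2 fold changes ran from -0.51 for MLPH, a linker of melanosomes to myosin, to 0.02 for MLANA, a melanosomal protein, with a median of -0.08. MLANA was at 607, 534 and 508 CPM in DMSO and at 722, 495 and 453 CPM with the drug, so the treated samples lay on both sides of the controls, and the sign of its change turned in some settings. MLPH was at 131, 138 and 136 CPM in DMSO and at 98.0, 93.1 and 93.0 CPM with the drug, lower in all 3 treated samples (edgeR adjusted p 0.338). It was the 1 pigmentation gene called, as lower, with limma-voom, with the offsets (without and with the block) and with the 6 samples alone, and the other 15 were called under none of the 11 settings.

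After 24 h the picture of this programme in MP41 was different. There, 14 of the 16 pigmentation genes were lower and none was higher, with a median log2 fold change of -1.48, where 18.7% of all tested genes were lower and 17.4% higher. The 24 h effect lay below the 4 h effect for 11 of the 16 by the test of the difference, which called 18.6% of all genes in either direction (2890, or 5815 without DMSO replicate 3 at 24 h). TRPM1, a cation channel of melanocytes, had the largest such difference of the list, -4.56. DCT, an enzyme of melanin synthesis, differed by -2.72 and MLPH by -2.30. MITF itself fell by 2.56 on the log2 scale at 24 h, from 466 ± 138 to 78.9 ± 5.61 CPM (SD, n = 3), and its 24 h effect differed from its 4 h effect by -2.01 (edgeR adjusted p 0.000507). SOX10 at 24 h stood at 1180 ± 349 CPM in DMSO and at 44.3 ± 4.58 CPM with FHT-1015 (SD, n = 3). Its effect there was -4.74, a difference from 4 h of -2.47 (edgeR adjusted p 7.2e-05), and the DMSO samples at 24 h varied more than those at 4 h. SOX10 in DMSO also stood higher at 24 h than its 422 to 498 CPM at 4 h, so the difference between the times includes that of the controls. Mitochondrial reads at 24 h made up 1.3 to 3.42% of reads in genes in DMSO and 3.56 to 5.96% with FHT-1015. Their part in the 24 h values was not tested.

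**Figure D2:**
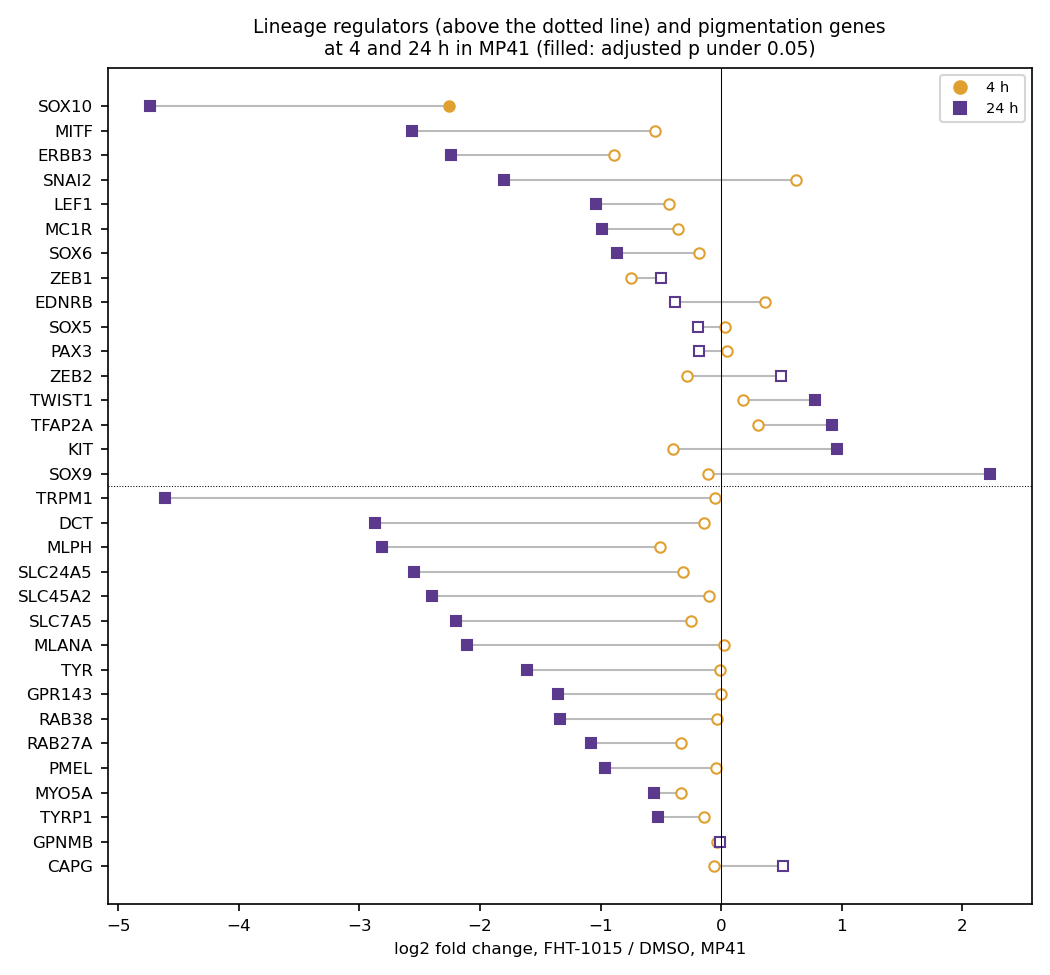
Log2 fold changes (FHT-1015 over DMSO, x axis) of the tested lineage regulators, above the dotted line, and pigmentation genes, below it, in MP41 at 4 h (circles) and 24 h (squares), with filled symbols for an adjusted p under 0.05. At 4 h SOX10 at -2.26 is the one filled circle, and the pigmentation genes lie between -0.51 and 0.02.

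Among signalling genes, the interleukin 6 receptor subunit IL6R fell evenly. It measured 66.9, 66.9 and 65.6 CPM in DMSO and 24.9, 27.7 and 28.7 CPM with FHT-1015. The replicates of each group differed little and the groups were far apart, giving a change of -1.29 on the log2 scale (SE 0.14, edgeR adjusted p 0.00111) with 40.8% left. In the list of 18 IL6 and JAK-STAT genes, IL6R was the only call (5.56%, beside 0.225% of all genes). Of the 18, 17 had a negative log2 fold change, with a median of -0.16 over the list. STAT3, the main transcription factor behind this receptor, was the exception at 0.01 (SE 0.14), with a sign that turned in some settings.

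SPRY4, an inhibitor of receptor tyrosine kinase and MAP kinase signalling that is itself induced by that pathway, went from 186, 174 and 172 CPM to 103, 73.8 and 87.8 CPM. All treated samples were lower, near the 49.8% that the fit gives (-1.01, SE 0.15, edgeR adjusted p 0.0108). It overlaps SPRY4-AS1 on the other strand, and this unstranded library type cannot separate the pair. DUSP10, a phosphatase of the stress-activated MAP kinases p38 and JNK, was at 12.9, 11 and 11.6 CPM in DMSO and at 2.24, 4.90 and 5.56 CPM with FHT-1015 (-1.45, SE 0.26, edgeR adjusted p 0.0403). Again the groups did not overlap, and the lowest value came from the shallow replicate 1.

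Of 18 tested genes of MAP kinase output, IL6R and SPRY4 were the 2 called (11.1%, beside 0.225% of all genes), both lower, and the median was -0.16. The other members lay on both sides of 0: SPRY1 was at 0.58 and SPRY2 at 0.44, while FOSL1 was at -0.89 (edgeR adjusted p 0.154), DUSP4 at -0.53 and CCND1 at -0.46, and none of these passed the test. The list had 7 calls with limma-voom (38.9%, beside 4.18% of all genes), 2 higher and 5 lower. With the 6 samples alone it had 6 (33.3%, beside 2.4%), 1 higher and 5 lower. There were 5 with offsets and block (27.8%, beside 1.41%), 4 with the offsets (22.2%, beside 1.36%) and 4 with DESeq2 (22.2%, beside 1.09%). FOSL1, as lower, and SPRY2, as higher, were among them each time.

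The remaining calls are ordered by what their products are known to do, a grouping made after the values were seen and not tested. Several of the falling genes act in adhesion and on the cytoskeleton. NEDD9, a scaffold for focal adhesion kinase and SRC that is tied to melanoma invasion, went from 141, 147 and 173 CPM to 60, 72.9 and 75.0 CPM (-1.15, SE 0.14, edgeR adjusted p 0.00592). RIPOR2, an inhibitor of the small GTPase RHOA, went from 30, 29.3 and 36.2 CPM to 9.39, 7.82 and 12 CPM (-1.70, SE 0.18, edgeR adjusted p 0.00111). In both, the treated values sat close together and well under the controls.

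NAV3, a microtubule-binding protein, was at 27.7, 28.6 and 30.6 CPM in DMSO and at 6.35, 8.33 and 10.2 CPM with the drug (-1.79, SE 0.30). PHACTR1, which binds actin and protein phosphatase 1, went from 73.7, 70.5 and 88.6 CPM to 36.4, 28.5 and 34.8 CPM (-1.23, SE 0.19). Both genes were lower in every treated replicate, with edgeR adjusted p of 0.0231 and 0.0111 in that order. PHACTR1 overlaps TBC1D7, and its change was -0.90 when the reads of the 2 strand columns were summed. NUAK1, a kinase of the AMPK family with a role in cell adhesion, went from 41, 51.3 and 41.3 CPM to 18.1, 23.2 and 19.6 CPM (-1.13, SE 0.20, edgeR adjusted p 0.0299).

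Transcription factors were also found among the falls. ATOH8, a basic helix-loop-helix factor induced by BMP signals, was at 96.1, 112 and 104 CPM in DMSO and at 41.7, 47.9 and 45.1 CPM with FHT-1015 (-1.21, SE 0.17, edgeR adjusted p 0.00747). MSC, another factor of that class, was at 15.3, 13.8 and 15.1 CPM and at 7.78, 6.19 and 5.48 CPM (-1.19, SE 0.19, edgeR adjusted p 0.0168). It shares its locus with MSC-AS1, and the strand of its reads is not known. MAFF, a small partner of bZIP factors, went from 44.0, 36.6 and 39.6 CPM to 23.5, 19.5 and 22.7 CPM (-0.87, SE 0.15, edgeR adjusted p 0.0307). The treated and control samples were apart in all 3 genes, and most tightly so for ATOH8.

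The other genes that fell have roles in endosomes, in hormone and immune signalling, or none that is well known. WDR91, which acts on phosphoinositides during endosome maturation, went from 102, 88.9 and 84.1 CPM to 46.8, 43.3 and 44.6 CPM (-1.03, SE 0.15, edgeR adjusted p 0.00926). GREB1, known as an oestrogen receptor cofactor in breast cells, went from 272, 277 and 247 CPM to 129, 155 and 123 CPM (-0.96, SE 0.15, edgeR adjusted p 0.0164). Both were reduced to about the same share of their DMSO level, 49.0% and 51.2%, with no overlap. PLEKHO2 at -1.37, CCDC9B at -1.63, ZNF275 at -1.11 and the long noncoding RNA LINC00689 at -1.78 were lower as well, and LINC00689 was scarce, at 6.88 to 8.5 CPM in DMSO and 1.52 to 2.48 CPM with the drug. The remaining falls were MYEOV at -0.97, SH3TC2, a protein of recycling endosomes in Schwann cells, at -1.13, TRIM38, a ubiquitin ligase of innate immune signalling, at -0.77, C4orf54 at -1.46 and DEPP1, a target of FOXO factors, at -1.06. DEPP1 overlaps RASSF4, and the sharing of reads between them is not known.

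The genes that rose were led by a nuclear receptor. NR4A2, an orphan receptor of the NR4A family whose members are induced within an hour by many signals, was at 14.5, 8.88 and 10.4 CPM in DMSO and at 59.5, 28.5 and 34.4 CPM with FHT-1015. All treated samples were higher, the shallow replicate 1 by the most, and the fit gave a 3.62-fold rise (log2 fold change 1.85, SE 0.26, edgeR adjusted p 0.00747). Its relative NR4A3 was at 486, 423 and 341 CPM in DMSO and at 807, 1030 and 770 CPM with the drug (1.06, SE 0.18, edgeR adjusted p 0.0297). Per kilobase of exon, NR4A3 went from 66.1 to 138 RPKM and NR4A2 from 2.83 to 10.3 RPKM. The third member, NR4A1, was at 0.28 and was not called.

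MYC, which drives growth and ribosome production, rose from 165, 158 and 156 CPM to 291, 266 and 259 CPM. Both groups were tight, and the 1.71-fold rise (0.77, SE 0.12, edgeR adjusted p 0.0171) was among the 2 smallest changes called. In the list of 26 tested immediate early genes, NR4A2, NR4A3 and MYC were higher and MAFF was lower (15.4%, beside 0.225% of all genes). The median was 0.06. Limma-voom called 12 of the 26 (46.2%, beside 4.18% of all genes), 7 higher and 5 lower. The offsets with the block called 7 (26.9%, beside 1.41%), and the 6 samples alone 6 (23.1%, beside 2.4%), 4 higher and 2 lower. FOS at -0.38 and EGR1 at -0.51 were on the other side of 0 and did not pass the test. EGR1 stood at 20.8, 18.3 and 19.2 CPM in DMSO and at 14.9, 12.3 and 13.7 CPM with FHT-1015. Its treated samples were all lower than its controls.

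Other genes that rose regulate development. SOX4, a factor of progenitor cells, went from 291, 259 and 309 CPM to 538, 520 and 540 CPM (0.90, SE 0.13, edgeR adjusted p 0.00747). ID2, which binds basic helix-loop-helix factors and keeps them off DNA, went from 117, 102 and 99.0 CPM to 273, 198 and 204 CPM (1.08, SE 0.16, edgeR adjusted p 0.0102). HEY1, a repressor downstream of Notch, went from 31.0, 30.6 and 30.1 CPM to 71.5, 58.0 and 64.9 CPM (1.08, SE 0.15, edgeR adjusted p 0.00747). The controls of HEY1 were almost equal, and in each of these 3 genes the lowest treated sample was well above the highest control.

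FOXC1, a forkhead factor of eye and neural crest development, was at 45.0, 33.7 and 48.1 CPM in DMSO and at 90.9, 66.1 and 84.6 CPM with FHT-1015 (0.93, SE 0.16, edgeR adjusted p 0.0335). TBX3, a T-box repressor, was at 24.3, 20.7 and 20.1 CPM in DMSO and at 38.5, 37.0 and 40.8 CPM with the drug (0.84, SE 0.15, edgeR adjusted p 0.0331). Treated and control samples were apart in both, with more spread in FOXC1. The call of TBX3 was lost with the replicate number as a block, which also ended that of TRIM38.

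Modulators of secreted signals rose too. DACT1, an intracellular regulator of WNT signalling, went from 103, 113 and 110 CPM to 196, 248 and 243 CPM (1.07, SE 0.15, edgeR adjusted p 0.00747). BAMBI, a pseudoreceptor that restrains TGF-beta and BMP signalling, went from 151, 144 and 137 CPM to 303, 256 and 233 CPM (0.87, SE 0.15, edgeR adjusted p 0.0295). The spread was larger with the drug than in DMSO for both, without overlap. NCALD, a neuronal calcium sensor, completed the 11, at 21.6, 24.9 and 20.7 CPM in DMSO and at 45.1, 48.0 and 44.6 CPM with FHT-1015 (1.03, SE 0.13, edgeR adjusted p 0.00634).

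Among 16 tested TGF-beta and BMP response genes ID2 and BAMBI rose and ATOH8 fell (18.8%, beside 0.225% of all genes), with a median of 0.02. Among 17 tested WNT genes DACT1 was the only call (5.88%), with a median of -0.06. LGR4, a receptor that amplifies WNT signals, had the lowest value of the WNT list at -0.72 (edgeR adjusted p 0.3). Limma-voom, with 4.18% of all genes called, called 5 of the former list and 4 of the latter, and 2 of the IL6 and JAK-STAT genes, the second being STAT5A, a signal transducer of cytokine receptors.

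**Figure D3:**
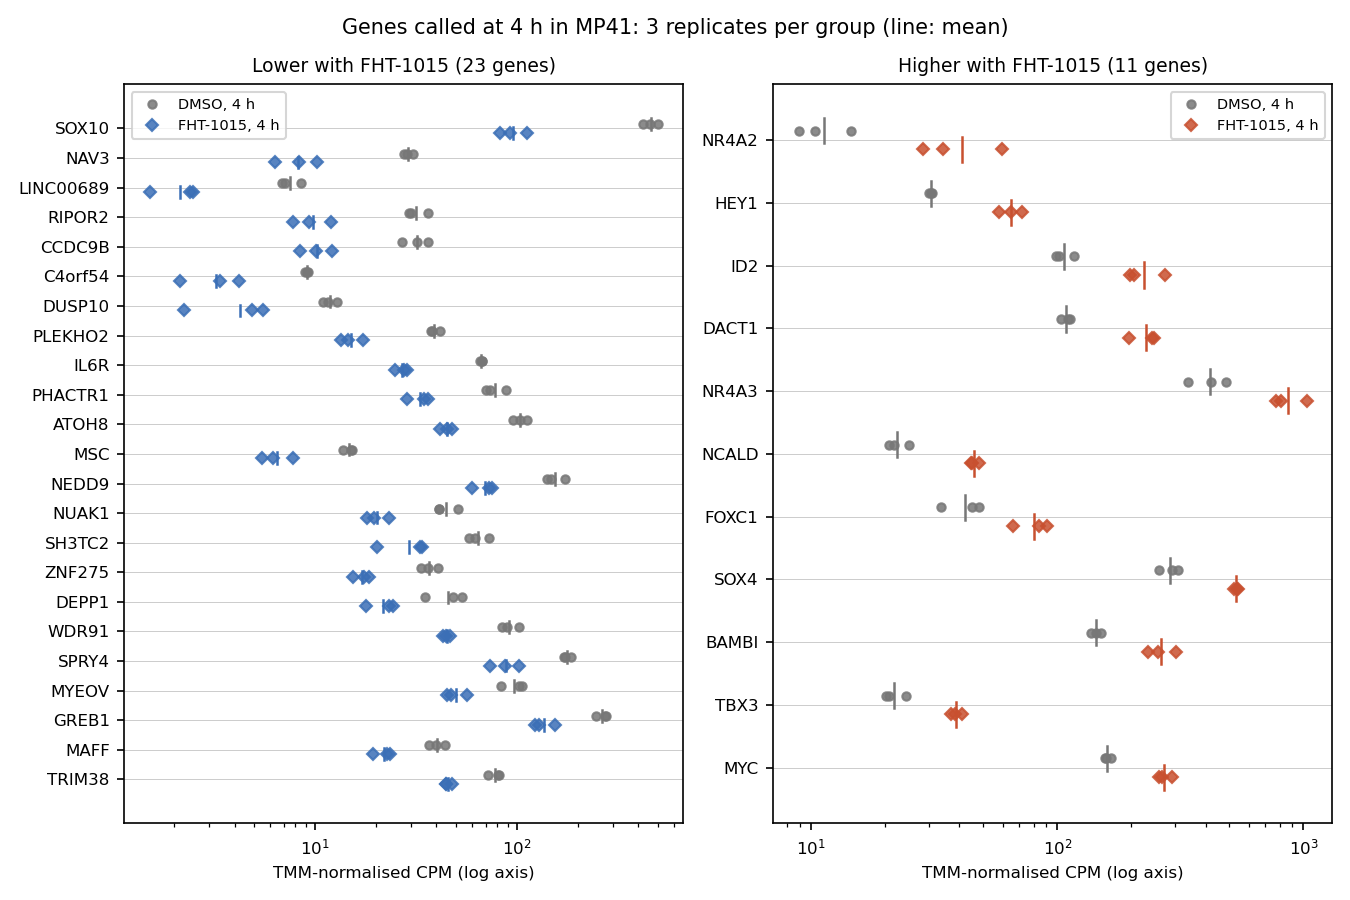
Level of 34 of the 35 called genes in the 3 DMSO samples and the 3 FHT-1015 samples of MP41 at 4 h, as TMM-normalised CPM on a log axis, with a line at each group's mean. In every row the symbols of the 2 groups are apart, from SOX10 at 422 to 498 against 82.7 to 112 CPM, to MYC at 156 to 165 against 259 to 291 CPM.

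The other lists held no call in this fit, which called 0.225% of all genes, and several of their members were called under other settings. None of 27 tested cell cycle genes passed the test, with a median of -0.11. CDKN1A, an inhibitor of cyclin-dependent kinases, was at 399, 314 and 373 CPM in DMSO and at 275, 212 and 253 CPM with the drug (-0.55, edgeR adjusted p 0.235), and its treated samples were all lower. Of 15 p53 targets none was called and the median was -0.29. GDF15, a stress-induced cytokine on that list, was at 1050, 987 and 950 CPM in DMSO and at 821, 559 and 482 CPM with FHT-1015 (-0.68, edgeR adjusted p 0.273). Here too the groups were apart, with replicate 1 nearest to the controls. The 14 genes of heat shock and endoplasmic reticulum stress (median -0.11) and the 16 of Gq and protein kinase C signalling (median -0.08) were without a call as well, RGS2, a GTPase activator for Gq, having the highest value of the latter at 0.92 (SE 0.37). The p53 targets had 7 calls of 15 with limma-voom (46.7%, beside 4.18% of all genes) and 4 with the 6 samples alone (26.7%, beside 2.4%). They had 4 with offsets and block (beside 1.41%), 3 with the offsets (beside 1.36%), 1 with DESeq2 (beside 1.09%) and 1 without the low-count filter (beside 0.36%). All of these were lower. For the cell cycle, Gq and stress lists the most calls under the 11 settings came with limma-voom, beside 4.18% of all genes. They were 3 cell cycle genes (11.1%), 3 Gq and protein kinase C genes (18.8%) and 2 stress genes (14.3%). As many stress genes were called with offsets and block (beside 1.41%) and with the 6 samples alone (beside 2.4%).

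Marker lists of other cell types had no call in either direction in this fit, which called 0.225% of all genes. Their summed levels ran from 22.2 to 32.1 CPM in DMSO and from 25.8 to 45.2 CPM with FHT-1015 for fibroblast markers, from 19.8 to 24.5 and from 17.6 to 21.9 for endothelial markers, and from 2.29 to 3.43 and from 1.84 to 4.89 for leukocyte markers. The upper end of the fibroblast range belonged to FHT-1015 replicate 2, where COL1A2 was at 3.43 CPM against 0 in all DMSO samples. COL3A1, another fibrillar collagen, was at 0.28, 0.108 and 0 CPM in DMSO and at 0.268, 2.81 and 0.938 CPM with FHT-1015 (log2 fold change 3.35, SE 1.02, edgeR adjusted p 0.338), and the groups overlapped. It was called higher without the low-count filter, with DESeq2, with limma-voom and in one fit of 36 samples, COL1A2 also without the filter and with limma-voom, and LRAT of the epithelial list with limma-voom. The part of these markers in the calls was not tested. In RNA from whole cultures, fewer cells of a type and less RNA per cell cannot be told apart.

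**Figure D4:**
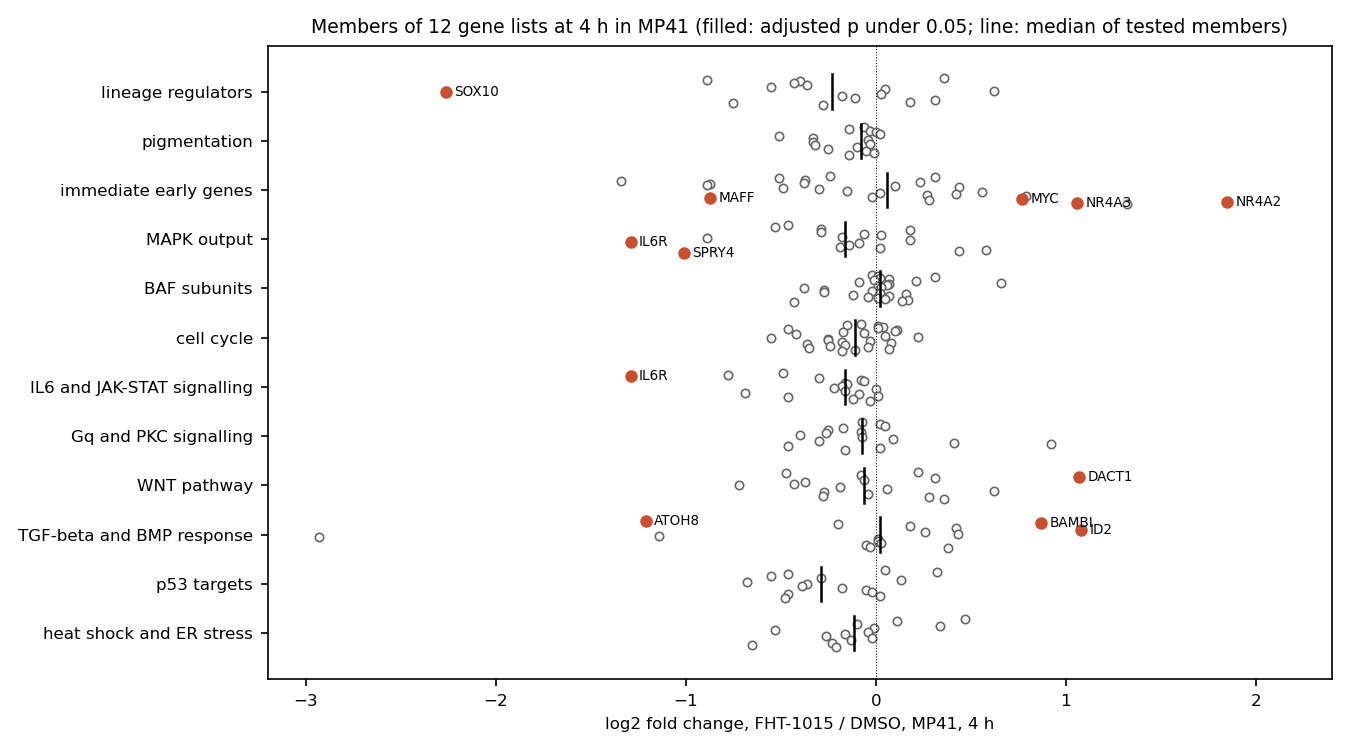
Log2 fold changes (FHT-1015 over DMSO, x axis) of the tested members of 12 gene lists (y axis) in MP41 at 4 h, with filled points for an adjusted p under 0.05 and a line at the median of each list. The medians lie between -0.29 for p53 targets and 0.06 for immediate early genes, and the filled points include SOX10 at -2.26 and NR4A2 at 1.85.

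Just outside the threshold lay genes of similar size. The 5 falls nearest to it were PGBD5 at -1.17, ITPRIP at -1.28, TSPAN14 at -0.83, C1orf116 at -1.43 and CSRNP1 at -1.11, with edgeR adjusted p from 0.0515 to 0.056. Rises near it were SPATA2L at 1.06, MEX3B at 0.82, PDE4A at 0.98 and PRDM15 at 0.73, with edgeR adjusted p from 0.0639 to 0.0717. TSPAN14, a tetraspanin, was at 192, 210 and 186 CPM in DMSO and at 116, 114 and 101 CPM with FHT-1015. These genes had no overlap between the groups, and each was called in 5 to 10 of the 11 other settings.

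Promoter sequence was looked at because NR4A genes are known targets of CREB, which binds cyclic AMP response elements. RefSeq promoter entries (GRCh38.p14) were held for 25 of the 35 called genes, with 42 windows of the 250 bases before a start. Of the 11 genes that rose, 6 had an entry, NR4A3 among them, and 5 had none, NR4A2 among them. The letters TGACG, read as CGTCA on the other strand and the core of such an element, stood in 3 of the 8 windows of genes that rose (37.5%), in 10 of the 34 of genes that fell (29.4%) and in 21.2% of all 35116 windows. The full palindrome TGACGTCA, which contains that core, was in none of the 8, in 2.94% of the 34 and in 1.65% of all. The E-box CACGTG was in none of the 8, 8.82% and 6.34%, and ACAAAG, part of the site that SOX factors bind and read as CTTTGT on the other strand, in 12.5%, 17.6% and 13.7%. The motifs were chosen after the values were seen, the windows are few, and a match is a description of letters. The 3 windows of genes that rose and hold the core are printed 5′ to 3′ with this core, on either strand, in capitals, cut where the annotated exon begins, since they show how differently it is placed.
NR4A3, chr9:99821635-99821854, plus strand, the 220 bases before the gene's first exon: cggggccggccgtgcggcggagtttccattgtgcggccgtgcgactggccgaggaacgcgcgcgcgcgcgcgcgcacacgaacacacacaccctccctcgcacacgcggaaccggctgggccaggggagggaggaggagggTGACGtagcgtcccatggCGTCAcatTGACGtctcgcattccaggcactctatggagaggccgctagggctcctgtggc
FOXC1, chr6:1609665-1609914, plus strand, 250 bases: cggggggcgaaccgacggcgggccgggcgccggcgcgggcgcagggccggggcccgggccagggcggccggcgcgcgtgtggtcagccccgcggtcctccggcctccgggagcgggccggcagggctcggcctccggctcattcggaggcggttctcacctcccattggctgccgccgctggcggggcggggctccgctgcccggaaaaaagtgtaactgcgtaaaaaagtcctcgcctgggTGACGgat
DACT1, chr14:58637712-58637961, plus strand, 250 bases, before 1 of its 3 listed starts: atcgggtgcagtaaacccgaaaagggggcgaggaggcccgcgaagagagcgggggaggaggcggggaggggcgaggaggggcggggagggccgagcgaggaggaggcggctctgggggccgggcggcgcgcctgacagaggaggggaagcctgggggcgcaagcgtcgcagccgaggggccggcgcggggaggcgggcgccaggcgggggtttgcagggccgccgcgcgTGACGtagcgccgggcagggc
NR4A3 held the core 3 times, close together, with 48 bases between the last of them and the exon, while FOXC1 and DACT1 held it once each, 3 and 16 bases before the end of the window. Whether a factor was bound there was not measured.

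Within MP41, the 4 h calls were followed in their own time course, where each time had its own DMSO samples. At 24 h, 7 of the 11 risen genes were higher again (63.6%, beside 17.4% of all genes tested) and 15 of the 24 fallen genes were lower again (62.5%, beside 18.7%). SOX4 and NR4A2 had larger effects at 24 h, 2.19 and 3.10, with differences of 1.30 and 1.24 from the 4 h effect that passed the test. FOXC1 (2.27 at 24 h) and HEY1 (1.82) also had larger rises, and PHACTR1 (-3.47), MYEOV (-3.31), SH3TC2 (-3.89) and GREB1 (-2.83) larger falls, each with a difference that passed.

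For 3 genes the effect had turned. MYC was at 184 ± 16.1 CPM in DMSO and at 90.2 ± 6.56 CPM with FHT-1015 at 24 h (SD, n = 3), a fall of -1.03 that differed from the 4 h rise by -1.80 (edgeR adjusted p 3e-05). NR4A3 was at 452 ± 38.4 and 316 ± 66.0 CPM, a fall of -0.52 that differed from its rise at 4 h by -1.58. DEPP1 went the other way, with 37.2 ± 3.35 CPM in DMSO and 77.8 ± 6.22 CPM with the drug, a rise of 1.06 after the fall at 4 h and a difference of 2.13. NEDD9 (0.04), RIPOR2 (-0.40), DACT1 (-0.20), NCALD (0.12), SPRY4 (-0.12), NUAK1 (-0.18), C4orf54 (0.32) and TRIM38 (0.28) were called at 4 h and not at 24 h, and for all 8 the difference between the times passed the test. NAV3 (-0.56) and DUSP10 (-0.64) were not called at 24 h either, and for them the difference was not called.

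Late changes were also looked at among genes chosen for being called at 24 h, not called at 4 h and different between the times. Of these, the genes with the largest falls at 24 h were SLC5A4 at -6.94, MLIP at -6.07, UBAP1L at -5.88, ABCB5, a transporter known from melanoma, at -5.71 and TRIM63, a ubiquitin ligase, at -5.61. TRIM63 at 4 h was at 36.8, 53.2 and 38.5 CPM in DMSO and at 40.6, 58.0 and 39.3 CPM with FHT-1015, and the groups overlapped. The largest rises were CYP1B1 at 4.09, EDIL3 at 4.08, PDE7B at 3.91, RDH10, an enzyme of retinoic acid synthesis, at 3.86 and CTH at 3.72. Their 4 h effects lay between -0.26 for CYP1B1 and 0.65 for RDH10, and those of the 5 falling genes between -0.84 for ABCB5 and 0.10 for TRIM63. Over the 2709 genes higher at 24 h the median 4 h effect was 0.02, and 53.3% were above 0, and over the 2908 lower genes it was -0.03, with 55.1% below 0, where 51.3% of all tested genes were above 0.

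The same drug and time in the 2 other lines gave a wide contrast in the number of calls. In 92-1, 12.9% of tested genes were higher and 16.7% lower, and in MEL202 0.157% and 0.522%. The biological coefficient of variation over the 12 libraries fitted for a line (FHT-1015 and its DMSO, both times together) was 0.217 in MP41, 0.117 in 92-1 and 0.294 in MEL202. Over the 6 MP41 libraries at 4 h alone it was 0.11, and that fit called 2.4% of genes in either direction. Of the 11 risen genes of MP41, 8 were higher in 92-1 (72.7%) and 6 in MEL202 (54.5%), and of the 24 fallen genes 18 were lower in 92-1 (75.0%) and 9 in MEL202 (37.5%). In turn the shared genes made up 0.397% and 0.688% of those called in 92-1, and 24.0% and 10.8% of those called in MEL202. The MEL202 calls varied with the processing: 25 genes higher and 83 lower became 132 and 249 with DESeq2, 53 and 154 without the low-count filter, 191 and 201 with the offsets and 16 and 99 with limma-voom. Without one MEL202 library they ranged from 6 to 25 and from 22 to 112, with the fewest without FHT-1015 replicate 3 at 4 h (6 and 22) or replicate 1 at 4 h (6 and 28). With MP41 and MEL202 both processed the same way, the calls of MP41 shared by MEL202 were 15 of 35 as reported, 75 of 169 with DESeq2, 94 of 211 with the offsets, 12 of 47 with the replicate block and 72 of 650 with limma-voom. LINC00689 and C4orf54 were not tested in 92-1, nor MYEOV in MEL202, for lack of reads.

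In these fits 12 genes were called the same way at 4 h in all 3 lines, among them NR4A2, NR4A3, MYC, DACT1 and HEY1 higher, and SOX10, IL6R, NEDD9, PLEKHO2, PHACTR1 and MSC lower. By contrast LINC00689, SPRY4, BAMBI, MAFF, FOXC1 and DUSP10 were called in MP41 and in neither of the others, although that alone does not show that the lines differ. Genes called in the other lines leaned the same way in MP41. The 1900 genes higher in 92-1 and tested in MP41 had a median of 0.15 there, with 80.7% above 0, and the 2439 lower genes one of -0.18, with 80.4% below 0. For the 24 genes higher in MEL202 the median in MP41 was 0.70, with all above 0, and for the 76 lower genes it was -0.66, with 90.8% below 0.

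**Figure D5:**
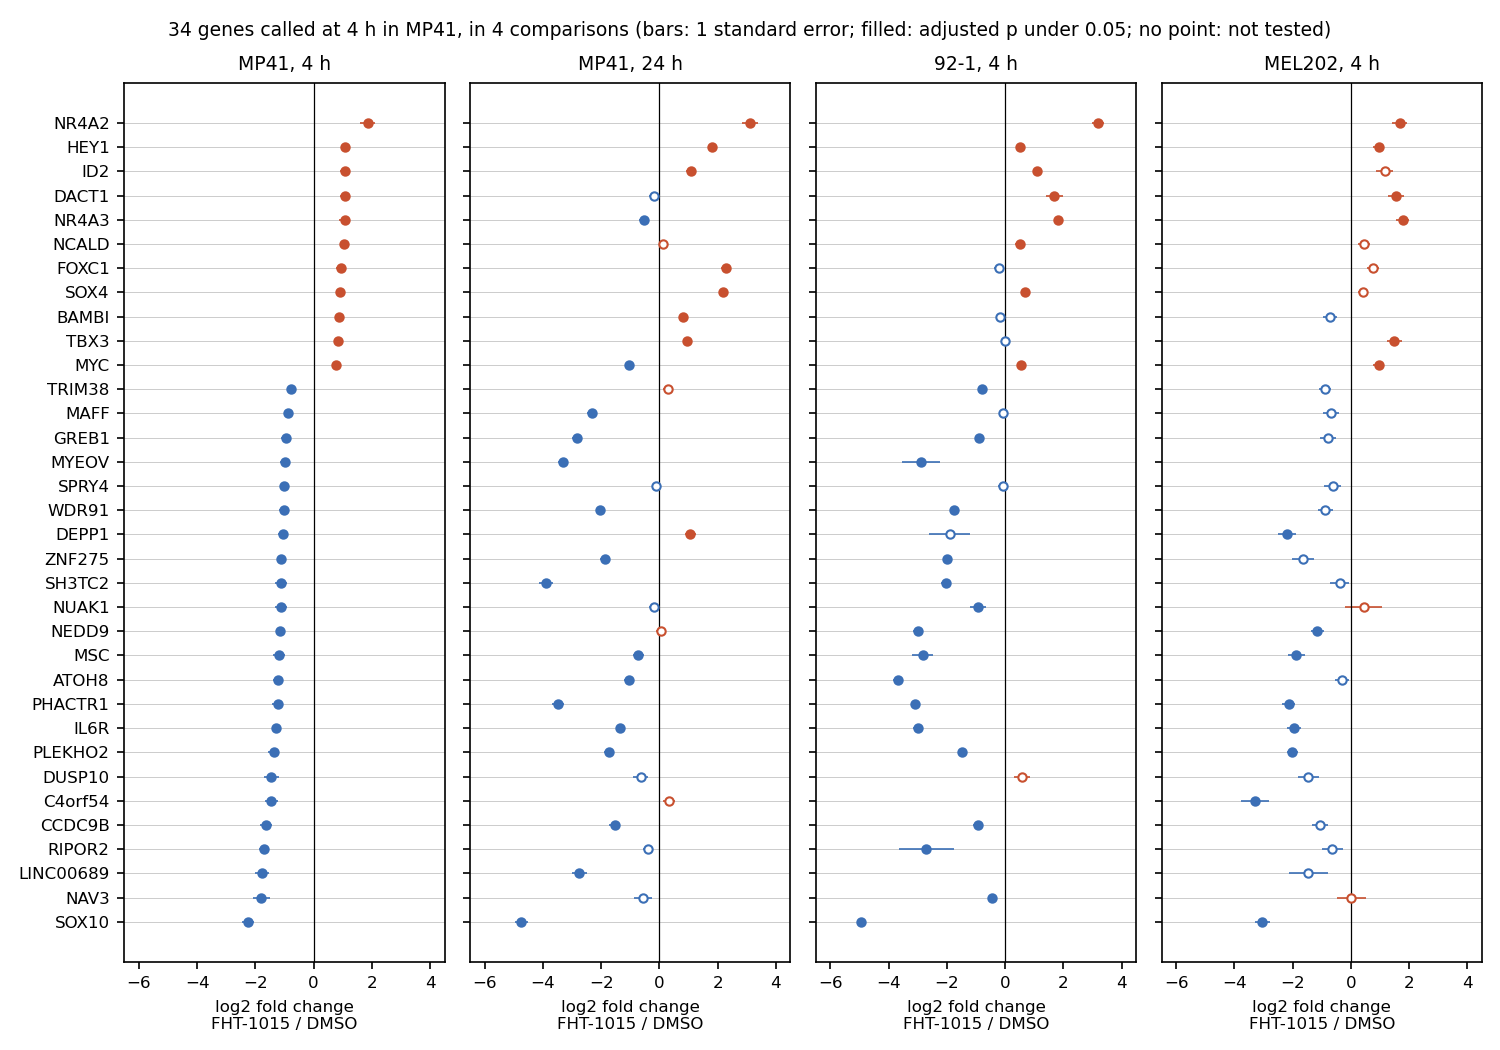
Log2 fold changes (FHT-1015 over DMSO, x axes) of 34 of the 35 genes called in MP41 at 4 h, in that comparison, in MP41 at 24 h, in 92-1 at 4 h and in MEL202 at 4 h, with bars of 1 standard error and filled points for an adjusted p under 0.05. SOX10 lies left of 0 in all panels, at -2.26, -4.74, -4.94 and -3.04, and MYC lies right of 0 at 4 h and at -1.03 in MP41 at 24 h.

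The difference itself was tested in one fit of the 36 samples. Between MP41 and 92-1 the 4 h effect differed for 290 of 18395 genes (1.58%), and 11 of the 35 called genes were among them. SOX10 fell less in MP41, by a difference of 2.66 (SE 0.29, edgeR adjusted p 7.68e-07), with 14.4 ± 3.44 CPM left in 92-1 from 436 ± 32.6 (SD, n = 3). IL6R (difference 1.70), NEDD9 (1.84), ATOH8 (2.46), PHACTR1 (1.85) and MSC (1.62) likewise fell less in MP41 than in 92-1. NR4A2 rose less, by -1.35, and DUSP10, at 0.58 in 92-1, differed by -2.04. BAMBI and FOXC1, at -0.19 and -0.21 in 92-1, differed by 1.05 and 1.13.

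Some immediate early genes differed from 92-1. In that line, 13 of the 25 tested were higher and 2 lower at 4 h, beside 12.9% and 16.7% of all genes tested there. Of the 26, 6 differed between the lines, beside 1.58% of all genes: FOS, FOSB, EGR1, EGR3 and NR4A2 had a lower effect in MP41, and IER5 a higher one. EGR1 was at 12.1 ± 3.22 CPM in DMSO and at 68.6 ± 9.85 CPM with FHT-1015 in 92-1 (SD, n = 3), a difference between the lines of -3.03. DLX2, a homeobox factor, differed most among the genes of smallest p, by -3.85, being at 18.6, 15.0 and 18.4 CPM in DMSO and 38.9, 26.0 and 31.6 CPM with the drug in MP41 and rising from a base of 0.47 CPM in 92-1. PIK3IP1, an inhibitor of PI3-kinase, differed by -2.58, and ALDH1B1, a mitochondrial aldehyde dehydrogenase, by 2.03, the first rising and the second falling in 92-1 while neither was called in MP41. None of 17 pigmentation genes differed.

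Between MP41 and MEL202 the effect differed for 3 genes (0.0163% of 18395), with MEL202 having the widest replicate spread of the 3 lines over both times together. TRIM63, at 0.10 in MP41, fell in MEL202 from 36 ± 9.57 to 5.15 ± 2.50 CPM (SD, n = 3) and differed by 2.90 (edgeR adjusted p 0.000663). BAMBI differed by 1.59, rising in MP41 while it stood at -0.72 in MEL202, and KLHDC8B by 1.42. BAMBI was thereby the only one of the 35 genes whose effect in MP41 differed from both other lines. For SOX10 the difference from MEL202 was not called (edgeR adjusted p 0.611). The count of 3 was 1 without MEL202 DMSO replicate 3 or FHT-1015 replicate 1, and 9 without MEL202 FHT-1015 replicate 2.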

How the data were processed

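The deposited files give, for each sample, raw read counts per gene that the authors made, with no normalisation, in 3 columns (unstranded and one for either strand) as STAR writes them. The unstranded column was used, since the library kit named in the labels' protocols does not mark strand. The submitters' processing notes name hg38 and limma. The aligner version and annotation are not given in the sources used here. Of 58870 genes, 58552 were matched by identifier to GENCODE release 29 (GRCh38) for symbols and coordinates, 47420 with the same version, and 92 spike-in controls with 0 reads were left out. Summary lines for unmapped, multimapping, unassigned and ambiguous reads were left out of library sizes.

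The 12 MP41 samples (4 groups of 3) were fitted by quasi-likelihood in edgeR 4.0.16 (R 4.3.3) after TMM scaling and filterByExpr, with the groups alone as terms, an F-test, Benjamini-Hochberg adjustment over all genes tested and a threshold of 0.05. The 24 h effect against the 4 h effect was a contrast of that fit, and the difference between lines a contrast of a fit of 36 samples. A standard error is the size of the fold change on the log2 scale over the root of its F. Scripts were tested on simulated counts.

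Alternatives were relative log expression, library size alone, no low-count filter, DESeq2 1.42.0, limma-voom 3.58.1 with quality weights, the sum of both strand columns, a replicate block, offsets for GC content and length (mgcv 1.9.3) without and with that block, other sets of samples in the fit, and leaving out each library. Leaving out libraries of the 2 other lines was added after seeing the data. No 2 replicates at 4 h agreed within sampling noise (chi-square per degree of freedom from 6.67 to 24.53).

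Named are all called genes, SMARCA4, SMARCA2, SOX10 and MITF, the 5 genes per direction nearest the threshold, called members and the largest rise and fall of each list (from 1 CPM), the 5 genes of smallest p that differ from each other line, genes that turn by 24 h, and the 5 largest late changes per direction (from 5 CPM). Values of some genes named by it are not reported here, though counts include them. List members named beyond this, such as ERBB3, TRPM1, DCT, DUSP4, CCND1, SPRY2, FOS, NR4A1, KIT, TFAP2A, STAT5A, COL3A1 and LRAT, were chosen after their values were seen. The members and gene lists were chosen with earlier results of these data known, so lists are described by counts and medians without a set test. Depth sets the precision: genes at a few CPM rest on few reads per library, and on the fewest in FHT-1015 replicate 1 at 4 h.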

Additional observations from a re-analysis of the deposited data

Results flagged for a closer look

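The results here were singled out because an effect differed between groups under the same contrast, by the edgeR test of the difference itself with Benjamini-Hochberg adjustment (adjusted p under 0.05). All values are differences of log2 fold changes, and no explanation was tested.

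Against 92-1 at 4 h (MP41 minus 92-1) the falls of these genes were smaller in MP41: SOX10 by 2.66, ATOH8 by 2.46, PHACTR1 by 1.85, NEDD9 by 1.84, IL6R by 1.70 and MSC by 1.62. FOXC1 (1.13) and BAMBI (1.05) rose in MP41 and were not called in 92-1, while NR4A2 differed by -1.35 and DUSP10 by -2.04. Genes not called in MP41 that differed were DLX2 (-3.85), EGR1 (-3.03), PIK3IP1 (-2.58), ALDH1B1 (2.03) and KLHDC8B (1.76). Against MEL202 at 4 h TRIM63 differed by 2.90, BAMBI by 1.59 and KLHDC8B by 1.42.

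Between the times in MP41 (24 h minus 4 h), the effect had turned for MYC (-1.80), NR4A3 (-1.58) and DEPP1 (2.13). Falls, each against the DMSO samples of its own time, were deeper at 24 h for SH3TC2 (-2.76), SOX10 (-2.47), MYEOV (-2.35), PHACTR1 (-2.24), GREB1 (-1.87), MAFF (-1.44), WDR91 (-1.0) and ZNF275 (-0.75). Rises were larger for FOXC1 (1.34), SOX4 (1.30), NR4A2 (1.24) and HEY1 (0.74). The effect had moved back toward 0 for RIPOR2 (1.30), NEDD9 (1.19), C4orf54 (1.78), SPRY4 (0.88), NUAK1 (0.95), TRIM38 (1.05), NCALD (-0.92) and DACT1 (-1.28). MITF, not called at 4 h, differed by -2.01. Of the largest late changes, the differences were -6.91 for SLC5A4, -6.09 for MLIP, -5.71 for TRIM63, -5.23 for UBAP1L and -4.86 for ABCB5, and 4.35 for CYP1B1, 4.09 for EDIL3, 3.56 for PDE7B, 3.53 for CTH and 3.21 for RDH10, genes that were chosen for such a difference.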

How the results depend on the processing

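All 35 called genes kept their direction under the 11 alternatives and the 12 fits without one library, and 26 kept their call under the 11 alternatives. Relative log expression ended the call of SH3TC2, library size alone those of DUSP10 and SH3TC2, the sum of strand columns that of TRIM38, and one fit of 36 samples those of ZNF275, C4orf54, DEPP1, MYEOV, NUAK1 and SH3TC2. The counts of genes higher and lower (11 and 24) were 30 and 92 without the low-count filter, 47 and 122 with DESeq2, 199 and 451 with limma-voom, 67 and 144 with GC and length offsets, 75 and 144 with these and the replicate block, 96 and 250 with the 6 samples alone, and 22 and 45 with 36 samples. Without one library they ranged from 1 to 34 and from 6 to 107. Genes differing from 92-1 (290) were 449 with DESeq2, 1913 with limma-voom, 656 with the offsets and 773 with offsets and block. Genes differing from MEL202 (3) were 22 without the filter, 19 with DESeq2, 9 with limma-voom, 5 with the strand sum, 8 with the replicate block, 25 with offsets, 53 with offsets and block, and 1 to 9 without one library. Genes differing between 24 h and 4 h (2890) were 7353 with limma-voom, 4573 with offsets, 4651 with offsets and block, and 1946 to 5815 without one library. The cause of these shifts was not tested.

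Same-numbered libraries at 4 h deviated together with correlations of 0.065, 0.171 and 0.059, and differently numbered ones with -0.091 to 0.028. Each library thus went most with the one of its own number. The labels do not say what the numbers mark, and the reported fit does not pair the samples. The replicate block gave 15 higher and 32 lower.

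Signs turned only for genes not called at 4 h. MLANA was at -0.134 with limma-voom and -0.011 with offsets and block, STAT3 at -0.004 and CYP1B1 at 0.062 with limma-voom, and EDIL3 at 0.091 with limma-voom, 0.016 with offsets and 0.003 with offsets and block. Without one library the ranges were -0.081 to 0.080 for SMARCA4, -0.202 to 0.156 for MLANA, -0.034 to 0.048 for STAT3, -0.068 to 0.475 for LYZ, -0.060 to 0.094 for PIK3IP1, -0.102 to 0.288 for TRIM63, -0.374 to 0.277 for SLC5A4, -0.098 to 0.128 for MLIP, -0.884 to 0.173 for CYP1B1, -0.275 to 0.176 for EDIL3 and -0.024 to 0.292 for CTH. Depth limits genes near 5 CPM most, in the shallow FHT-1015 replicate 1 above all.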
